A study of Mus musculus with 9 samples.

Results

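The genes of oxidative phosphorylation were followed in single-cell transcript counts from immune cells of mouse retinas that had spent 0, 7 or 20 days in light. A gene belonged to the set when its symbol began with Nduf (families a, b, c, s and v with a number), Uqc, Cox4 to Cox8 or Atp5, or was Sdha, Sdhb, Sdhc or Sdhd. These 87 genes lie in the nucleus, while the 13 protein-coding genes of the mitochondrial genome (mt-Nd, mt-Co, mt-Atp and mt-Cytb symbols) were kept apart from them. Together they are 100 of the 27998 genes in the deposited matrices. Of the nuclear members, 37 are named for complex I, 4 for complex II, 11 for complex III, 18 for complex IV and 17 for complex V. The mitochondrial members give 7 to complex I, 1 to complex III, 3 to complex IV and 2 to complex V. The symbols also take in a few genes that are not core subunits, such as the assembly factors Uqcc1, Uqcc2 and Uqcc3 and the supercomplex factor Cox7a2l.

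Oxidative phosphorylation takes place in the inner membrane of mitochondria. Complexes I and II accept electrons from NADH and succinate, complex III passes them to cytochrome c, complex IV hands them to oxygen, and complex V (ATP synthase) uses the proton gradient built on the way to make ATP. All of these except complex II combine subunits from both genomes, so a working chain needs nuclear and mitochondrial transcripts, which are made and degraded by separate machineries. Photoreceptors hold many mitochondria in their inner segments, and macrophages and microglia are known to alter the balance between glycolysis and respiration when they are activated.

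All animals were adult female Arr1-/- mice, which lack visual arrestin (the gene Sag) and lose photoreceptors in light, and no wild-type libraries were analysed here. They were bred in darkness and either stayed dark (day 0) or were kept in constant room light of about 200 lux for 7 or 20 days. Live retinal cells positive for CD45 and CD11b, surface proteins of leukocytes and myeloid cells, were sorted and captured in droplets with 3' chemistry. Each day had 3 libraries, and how the mice of a day were divided among its libraries is not given in the sources used here, so the tests measure the spread between libraries, which may in part be technical.

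The 9 libraries listed 5022 barcode entries that held 1365 different barcodes. Of these barcodes, 612 occurred in more than 1 library and 270 in all 9. Whether the UMIs of a shared barcode belong to the library and day that list them was not tested. Each barcode was therefore assigned to 1 library, that of its highest count of unique molecular identifiers (UMIs, counted transcript molecules), and kept if it had at least 200 detected genes. This left 907 barcodes with 1347311 UMIs, between 33 and 206 barcodes and between 36840 and 301893 UMIs a library. Sag had 8 UMIs in all. The sort's own genes were present in every library, with 180 UMIs of Ptprc (CD45) and 231 of Itgam (CD11b), as were the macrophage genes Csf1r (1589) and C1qa (7928).

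Over all barcodes the 13 mitochondrial members had 45774 UMIs and the 87 nuclear members 24604. In barcodes with under 10% mitochondrial UMIs the sums were close, at 25948 and 23166. The mitochondrial UMIs came mostly from mt-Atp6 (10698 UMIs, 23.4% of the mitochondrial total), mt-Co3 (7191, 15.7%), mt-Co1 (6319, 13.8%), mt-Nd1 (4918, 10.7%) and mt-Cytb (4659, 10.2%). The complex V and IV genes mt-Atp6 and mt-Co3 are neighbours on the genome, at chrM:7927-8607 and chrM:8607-9390 (GRCm38). At the other end stood mt-Nd6, the protein gene of the opposite strand (chrM:13552-14070), with 38 UMIs. The pairs mt-Atp8 and mt-Atp6, and mt-Nd4l and mt-Nd4, overlap in the genome, so the division of UMIs within each pair is uncertain. The values are counts of molecules captured at their 3' ends, which carry no factor for transcript length.

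Among nuclear members, complex IV led. Cox4i1, the common form of its subunit 4, had 1471 UMIs, Cox8a had 933 and Cox7a2l 848. Complex III was led by Uqcrh, the hinge protein, with 770 UMIs and Uqcr11 with 394. Complex V was led by Atp5l (676) and Atp5b (665), the membrane subunit g and the catalytic beta subunit. Complex I was led by Ndufa4 (614), whose product is now counted with complex IV, and by the accessory subunit Ndufa6 (430). Of the UMIs of Ndufa4, 325 were in non-myeloid barcodes (defined below) and 289 in myeloid barcodes. For Ndufa6, 62 of the 430 were in non-myeloid barcodes, so Ndufa4 did not lead it in myeloid barcodes. The succinate dehydrogenase genes of complex II were the sparsest, with 186 UMIs of Sdha and 163 of Sdhb.

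Where a subunit has a common and a tissue-restricted form, the common form gave nearly all UMIs summed over the libraries. Cox4i1 made up 97.9% of the Cox4i pair, Cox6a1 94.5% of the Cox6a pair, Cox6b1 97.5% of the Cox6b pair, Cox7a2 98.9% of the pair with Cox7a1, and Cox8a 99.0% of the pair with Cox8b. The heart and muscle forms Cox6a2, Cox7a1 and Cox8b had 24, 4 and 9 UMIs. The 9 UMIs of Cox8b were all in day 7 libraries, 7 of them in non-myeloid barcodes (defined below) of replicate 2. Cox4i2 had 31 UMIs, and its share of the pair reached 25% in the highest library. In the non-myeloid barcodes of day 7 replicate 3 it had 6 UMIs against 7 of Cox4i1. Ndufa4l2, a paralog of Ndufa4 known from hypoxia, had 2. The testis forms Cox7b2 and Cox8c had 0 UMIs of 1347311, which allows a level of up to 0.0223 UMIs per 10000 for each, counting error only. The 3 genes for the membrane ring of ATP synthase, which encode the same mature protein, were all present, with Atp5g2 at 53.5%, Atp5g1 at 26.5% and Atp5g3 at 20.0% of their sum.

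With every barcode included, neither group differed detectably between days. The nuclear members held 1.80%, 1.48% and 2.11% of non-mitochondrial UMIs in the day 0 libraries (replicates 1 to 3), 2.02%, 2.27% and 2.02% at day 7 and 1.88%, 1.82% and 1.87% at day 20. Day 0 covered the widest range and overlapped both later days. The mitochondrial members held 2.49%, 2.40% and 5.83% of all UMIs at day 0, 2.41%, 1.92% and 7.41% at day 7, and 5.81%, 3.36% and 4.81% at day 20. Replicate 3 of day 0 and replicate 3 of day 7 stood far above the other libraries of their day.

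UMIs were summed over the barcodes of each library and tested gene by gene with edgeR's quasi-likelihood test, all 9 libraries in one fit, with Benjamini-Hochberg adjustment over the 2310 genes tested. Of the members, 74 nuclear and 12 mitochondrial genes had enough UMIs to be tested. edgeR called 0 of them at an adjusted p under 0.05 in each of the 3 day comparisons, as did DESeq2. At day 7 against day 0, 2.29% of all genes tested were called higher and 4.89% lower. At day 20 against day 0 these shares were 0.606% and 0.563%, and at day 20 against day 7 they were 0.0433% each. At an unadjusted p under 0.05, edgeR gave 12 nuclear members at day 7 against day 0, all of them higher, 0 at day 20 against day 0 and 3 at day 20 against day 7, all lower, and 0 mitochondrial members in each. These 3 were Ndufb3, Atp5l and Ndufa7. Of all 2310 genes, 525 had such a p at day 7 against day 0 (215 of them higher). At day 20 there were 227 against day 0 (80 higher) and 197 against day 7 (124 higher). The nearest to the threshold was Atp5j2, subunit f of ATP synthase, with a log2 change of 1.00 at day 7 (SE 0.30, edgeR adjusted p = 0.0623). The median log2 change of the nuclear members tested was 0.38 at day 7 and 0.13 at day 20, each against day 0, where the medians of all genes were -0.06 and -0.01. For the mitochondrial members these medians were 0.27 and 0.45.

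**Figure D1:**
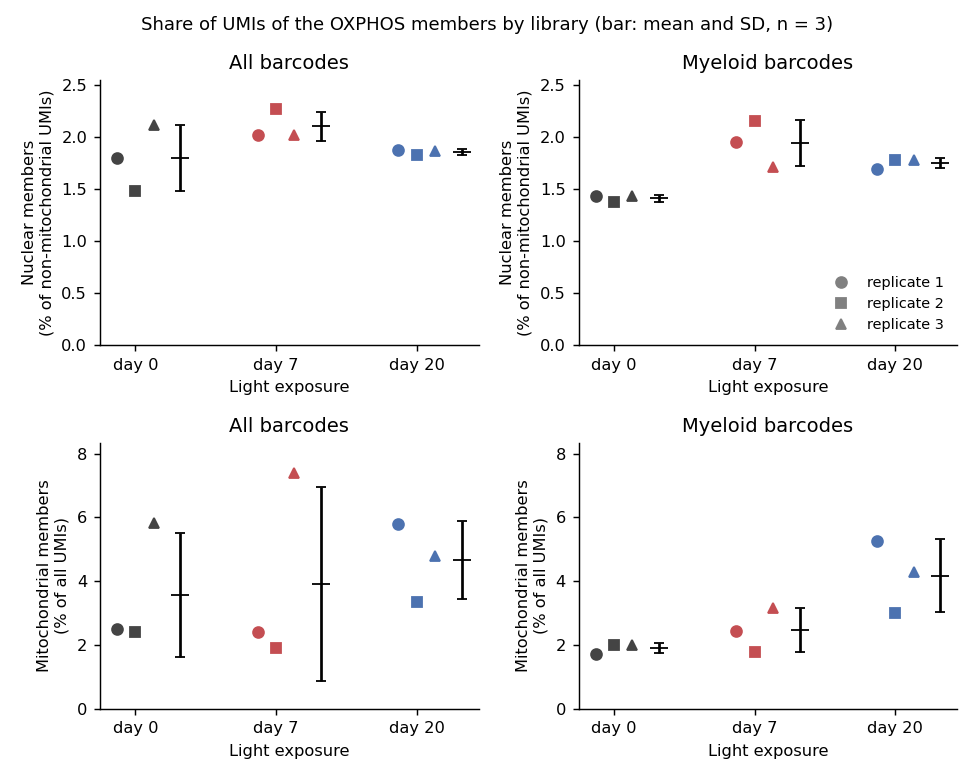
Share of UMIs held by the nuclear members (top, percent of non-mitochondrial UMIs) and the mitochondrial members (bottom, percent of all UMIs) in each library, by day of light, for all 907 barcodes (left) and for the 748 myeloid barcodes (right). Points are libraries, shaped by replicate, and the bar beside them gives the mean and SD of the 3. In myeloid barcodes the 3 day 0 libraries lie at 1.37% to 1.44% for the nuclear members, below all 6 later libraries.

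The barcodes were not of one kind. In 159 of the 907, UMIs of marker genes for other cell types equalled or outnumbered those of myeloid markers (the other barcodes), which left 748 myeloid barcodes. Rod genes led in 104 of the 159. Others were led by markers of other retinal neurons (14), Müller glia (14), cones (9), lymphocytes (6), lens (3), retinal pigment epithelium (2) or endothelium (2). In the remaining 5, lists tied or had no UMI. Other barcodes were unevenly spread, at 35, 17 and 47 in the day 0 libraries, 11, 7 and 16 at day 7 and 9, 6 and 11 at day 20. This division was made after the data had been seen.

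Other barcodes were richer in both groups of members. The mitochondrial members held a median of 5.43% of the UMIs of an other barcode and 1.55% of those of a myeloid barcode. For the nuclear members the medians were 3.13% and 1.89% of non-mitochondrial UMIs. Median depth was close, at 905 and 913 UMIs. In the rod-led barcodes the medians were 4.98% and 3.43%. Barcodes led by other retinal neurons, Müller glia or cones also lay above the myeloid medians in both groups. The small remaining classes did not all do so. The nuclear median was 1.72% in lymphocyte-led, 1.36% in lens-led and 1.41% in endothelium-led barcodes. The mitochondrial median was 0.807% in those led by retinal pigment epithelium and 1.16% in the endothelium-led.

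The difference was tested within libraries, by the edgeR quasi-likelihood test on sums of other against myeloid barcodes, with the library as a block, in the 6 libraries that had at least 10 of each. Of 426 genes tested, 23.5% were called higher in other barcodes. All 12 mitochondrial members tested and 17 of the 29 nuclear members tested were among them, and 0 members were called lower, where 22.5% of all genes were. The libraries did not all go this way. In day 7 replicate 1, only mt-Cytb and mt-Nd4 of the tested mitochondrial members held a larger share of UMIs in other barcodes. There mt-Atp6 had 168 of 38308 UMIs in other barcodes and 1511 of 263585 in myeloid barcodes. The median log2 difference was 1.99 for the mitochondrial and 1.10 for the nuclear members, against -0.17 for all genes. Of the 159 other barcodes, 41 had at least 10% mitochondrial UMIs, and of the 748 myeloid barcodes 15 had. This comparison was not fitted without them, so how far the mitochondrial difference rests on them was not tested. No member is among the marker genes that divide the classes. The filter on low counts asked for enough UMIs in at least 6 of the sums, a number that other barcodes alone can supply. A gene could thus enter through the class where it is high, as Cox5b and Uqcr10 mainly did. The counts of 12 and 17 describe only the members that entered. With no filter on low counts edgeR called 0 mitochondrial and 2 nuclear members, and 5 of the 17 had a log2 difference below 0, Uqcrh the lowest at -0.27. The share of all genes called without the filter is not given.

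Ndufa4 differed most among the nuclear members. Its level in other barcodes was 27.5, 16.0 and 13.4 UMIs per 10000 UMIs at day 0 (replicates 1 to 3), 9.14 and 6.10 at day 7 (replicates 1 and 3) and 7.99 at day 20 (replicate 3). In the myeloid barcodes of the same libraries it was 2.80, 2.53, 3.28, 1.90, 2.93 and 3.32. The lowest of the other barcodes lay above the highest of the myeloid barcodes, and the log2 difference was 2.74 (SE 0.34, edgeR adjusted p = 2.89e-05). Uqcrq, a small subunit of complex III, followed with 2.29 (SE 0.38), then Atp5b with 1.98 (SE 0.28), then Uqcr10 with 1.73 (SE 0.45). Among mitochondrial members mt-Cytb, the cytochrome b of complex III, had a log2 difference of 2.31 (SE 0.39) and mt-Co1 the smallest, 1.61 (SE 0.39).

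Several abundant members did not follow. Pooled over all 9 libraries, Cox4i1 stood at 10.3 UMIs per 10000 in other and 11.0 in myeloid barcodes. Its log2 difference, fitted within the 6 libraries after normalization, was 0.24 (SE 0.33, edgeR adjusted p = 0.569). Cox7a2l stood at 4.43 and 6.68 in the pooled sums, and its log2 difference in that fit was -0.11 (SE 0.33). The pooled levels and the fit thus differ in libraries and normalization. The make-up of the ATP synthase ring genes also differed in value, with Atp5g3 at 33.7% of the 3 genes in other barcodes and 16.8% in myeloid barcodes, and Atp5g2 at 38.7% and 56.9%. The library shares of Atp5g3 overlapped between the classes, and this was not tested.

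**Figure D2:**
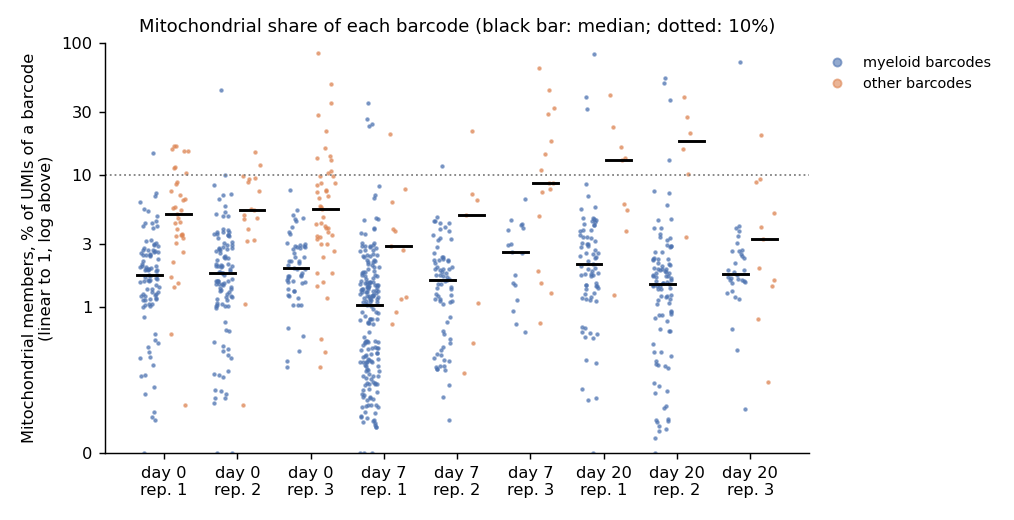
Mitochondrial members as percent of the UMIs of each barcode, by library, for myeloid barcodes (blue) and other barcodes (orange). The axis is linear up to 1 and logarithmic above, black bars are medians and the dotted line marks 10%. In each library the other barcodes have the higher median, and a few myeloid barcodes reach above 10%, up to 81.6%.

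Within the myeloid barcodes the nuclear members were lower at day 0 than later. Their summed share of non-mitochondrial UMIs was 1.43%, 1.37% and 1.44% in the day 0 libraries, 1.95%, 2.15% and 1.71% at day 7 and 1.70%, 1.78% and 1.78% at day 20. No day 0 library reached any later library, while days 7 and 20 overlapped. The means were 1.41% ± 0.034 (SD, n = 3), 1.94% ± 0.22 and 1.75% ± 0.047. As the median over barcodes, which gives every barcode the same weight, the libraries stood at 1.67%, 1.72% and 1.73% at day 0, 1.88% to 2.11% at day 7 and 1.77% to 2.01% at day 20, again with no overlap between day 0 and either later day.

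Gene by gene, edgeR's quasi-likelihood test on the sums of myeloid barcodes called 14 of the 65 nuclear members tested higher at day 7 than at day 0 and 0 lower, at an adjusted p under 0.05 over 1406 genes. Of all genes tested, 9.82% were called higher and 17.1% lower. DESeq2 called 5 of the members, edgeR with the replicate number as a block called 8, and edgeR with no filter on low counts called 1. The share of all genes called in these alternative fits is not given. Of the 65, 56 had a log2 change above 0, with a median of 0.56 against -0.09 for all genes. In 18 of them all day 7 libraries lay above all day 0 libraries, as in 12.6% of all genes, and in 0 of them all lay below, as in 25.8% of all genes. By complex, the 14 were 5 of 28 tested in complex I, 0 of 2 in complex II, 3 of 9 in complex III, 1 of 11 in complex IV and 5 of 15 in complex V. These 14 genes were singled out after their values had been seen.

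In ATP synthase (complex V), Atp5j2, subunit f, stood at 1.83, 2.07 and 2.34 UMIs per 10000 in the day 0 libraries, 4.06, 5.28 and 3.91 at day 7 and 3.37, 3.94 and 4.09 at day 20. Its levels at day 0 lay below those of both later days, and the log2 change at day 7 was 1.23 (SE 0.27, edgeR adjusted p = 0.00378). Atp5l, subunit g, stood at 3.47, 3.82 and 2.81 at day 0, 6.41, 7.62 and 7.83 at day 7 and 5.05, 3.45 and 6.38 at day 20. Day 7 lay above day 0 throughout, whereas day 20 overlapped day 0, and the change at day 7 was 1.19 (SE 0.29, edgeR adjusted p = 0.00786). The other members of complex V that were called were Atp5e, the epsilon subunit (1.00), Atp5j, coupling factor 6 (0.93), and Atp5h, subunit d of the peripheral stalk (0.87). For Atp5j and Atp5h the libraries overlapped, with day 7 replicate 3 (1.96 and 2.45 UMIs per 10000) among those of day 0, and they passed in 4 and 2 of the 9 fits that leave out 1 library. Atp5e passed in 5 of these fits. The catalytic subunit gene Atp5b was not among the members called.

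In complex III, Uqcr10, one of its smallest subunits, stood at 0.913, 1.34 and 0.469 UMIs per 10000 at day 0, 2.66, 3.03 and 1.96 at day 7 and 2.52, 2.18 and 2.30 at day 20. Both later days lay above day 0, and the log2 change at day 7, 1.58 (SE 0.36, edgeR adjusted p = 0.00478), was the largest of the 14. Uqcrq (1.12) and Uqcrh (0.83) were also called, and they passed in 4 and 3 of the 9 fits that leave out 1 library. For Uqcrq the single low library of day 7, replicate 3 at 0.489, lay below all of day 0.

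In complex I, Ndufa7, an accessory subunit, stood at 1.34, 1.86 and 1.17 UMIs per 10000 at day 0, 2.66, 3.91 and 4.40 at day 7 and 2.04, 2.06 and 1.02 at day 20. It was high at day 7, while at day 20 2 libraries lay a little above and 1 below the range of day 0, with a log2 change at day 7 of 1.30 (SE 0.33, edgeR adjusted p = 0.0099). The accessory subunits Ndufc1 (1.40), Ndufc2 (0.94), Ndufa13 (0.82) and Ndufa6 (0.80) were called as well. In this order they passed in 6, 4, 2 and 2 of the 9 fits that leave out 1 library. In complex IV, Cox5b (1.06) was the single member called, and it passed in 5 of these fits. Cox4i1, the most abundant nuclear member, was close to the threshold, with a log2 change of 0.72 (SE 0.27, edgeR adjusted p = 0.0574) and overlapping libraries.

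**Figure D3:**
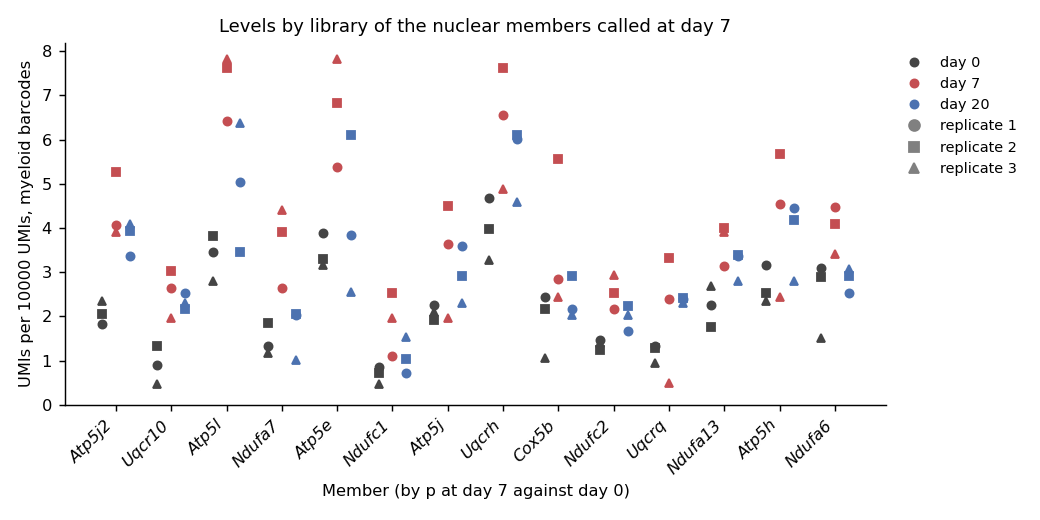
Level in each library, as UMIs per 10000 UMIs of myeloid barcodes, of the 14 nuclear members called higher at day 7 than at day 0, ordered by p. Colours are days and shapes are replicates. Atp5j2, Atp5l, Uqcr10 and Ndufa7 show no overlap between day 0 (grey) and day 7 (red), whereas day 7 replicate 3 falls among day 0 for Atp5j and Atp5h and below day 0 for Uqcrq.

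The promoters of the 4 members with the smallest p are shown because these genes changed together between day 0 and day 7 in the myeloid barcodes. Each line holds the 250 bases before the start site (RefSeq, GRCm38.p6, strand of the gene), at chr5:145191542-145191791 (minus strand), chr11:4704345-4704594 (minus), chr9:44920743-44920992 (minus) and chr17:33824322-33824571 (plus, the first of 2 promoters listed). Capitals mark matches, on either strand, to 4 short sequences: GCATGCGC, a core of the NRF1 site, CCGGAAG, a core of the ETS site bound by GABPA, AAGGTCA, the site of estrogen-related receptors, and ATGGCGGC, a core of the YY1 site.

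Atp5j2: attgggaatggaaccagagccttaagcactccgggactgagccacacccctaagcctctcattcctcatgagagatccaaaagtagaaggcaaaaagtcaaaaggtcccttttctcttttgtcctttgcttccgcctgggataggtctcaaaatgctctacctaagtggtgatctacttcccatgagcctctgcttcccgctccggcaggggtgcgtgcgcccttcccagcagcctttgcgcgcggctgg
Uqcr10: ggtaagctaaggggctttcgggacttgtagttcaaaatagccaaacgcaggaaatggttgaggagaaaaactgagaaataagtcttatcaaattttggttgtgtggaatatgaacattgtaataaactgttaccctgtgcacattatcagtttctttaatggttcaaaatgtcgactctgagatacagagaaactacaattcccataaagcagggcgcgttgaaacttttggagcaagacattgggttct
Atp5l: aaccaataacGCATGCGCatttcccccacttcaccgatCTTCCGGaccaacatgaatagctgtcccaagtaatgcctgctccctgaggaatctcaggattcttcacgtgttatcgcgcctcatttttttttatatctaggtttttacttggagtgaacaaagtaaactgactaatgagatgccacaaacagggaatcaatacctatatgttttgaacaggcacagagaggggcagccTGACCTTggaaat
Ndufa7: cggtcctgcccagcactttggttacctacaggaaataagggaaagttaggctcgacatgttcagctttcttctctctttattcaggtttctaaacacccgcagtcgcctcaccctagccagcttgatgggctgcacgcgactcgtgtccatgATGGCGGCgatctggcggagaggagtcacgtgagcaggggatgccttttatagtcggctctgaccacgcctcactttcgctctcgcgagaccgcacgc

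Atp5l held GCATGCGC, the reverse complement of CCGGAAG and that of AAGGTCA, Ndufa7 held ATGGCGGC, and the other two held none of these letters. The promoter table had 74 windows for 69 of the 87 nuclear members. Over the whole 300 bases, which run 50 bases past the start, GCATGCGC was present in 13.5% of the members' windows and 2.71% of all 32851 windows. The shares were 21.6% and 8.86% for CCGGAAG, 12.2% and 4.72% for AAGGTCA, and 9.46% and 2.24% for ATGGCGGC. Of the 15 windows of called members, which belong to 13 of the 14, 2, 5, 2 and 2 held them. The 2 windows with ATGGCGGC are both of Ndufa7. Whether called members differ from the other members in these shares was not tested. These motifs do not overlap one another in the windows shown, and a match is a description of letters only.

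The day 7 difference was not even across barcode depths. Myeloid barcodes of 2000 UMIs or more held 54.8% to 62.2% of the myeloid UMIs of a day 0 library, 40.6% to 44.8% at day 7 and 38.8% to 59.7% at day 20. Their nuclear share was 1.13%, 1.09% and 1.16% at day 0, 1.86%, 2.22% and 1.20% at day 7 and 1.07%, 1.58% and 1.64% at day 20. Barcodes under 2000 UMIs stood closer together, at 1.94%, 1.84% and 1.77% at day 0, 2.02%, 2.11% and 2.12% at day 7 and 2.07%, 2.08% and 1.88% at day 20. Among the shallow barcodes day 7 lay above day 0. Deep barcodes of day 0, of day 7 replicate 3 (3 barcodes) and of day 20 replicate 1 (5 barcodes) had the lowest shares. Fitted on barcodes under 2000 UMIs alone, edgeR called 1 of 49 nuclear members tested, Atp5l (1.11, adjusted p = 0.0344), where 4.5% of all genes were called higher, and the median log2 change of the 49 was 0.29. Thinned to 500 UMIs, a myeloid barcode showed 7.22 ± 0.42 nuclear members at day 0, 7.77 ± 1.0 at day 7 and 7.39 ± 0.54 at day 20 (mean and SD over 3 libraries, 45, 34 and 50 shallower barcodes left out), and the libraries overlapped.

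**Figure D4:**
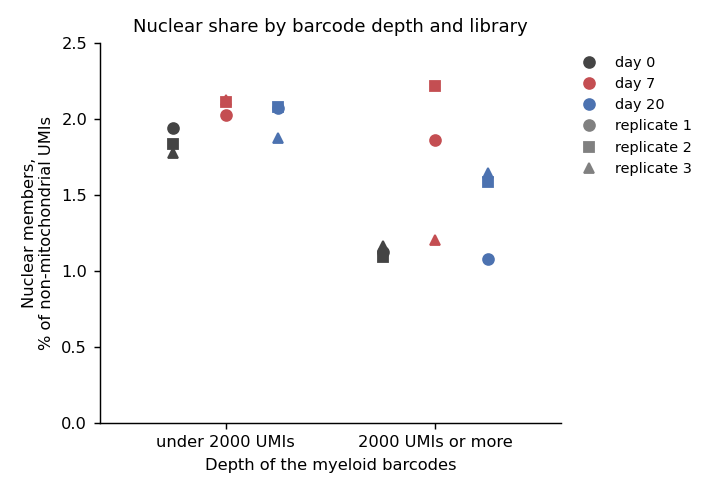
Nuclear members as percent of non-mitochondrial UMIs in myeloid barcodes under 2000 UMIs and of 2000 UMIs or more, summed by library. Colours are days and shapes are replicates. The deep barcodes of day 0 lie at 1.09% to 1.16%, whereas the shallow barcodes of the same libraries lie at 1.77% to 1.94%.

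Leaving out 1 library at a time, the count of nuclear members called at day 7 ran from 3 to 25. It was 4 without day 0 replicate 1, 2 or 3, 8 without day 7 replicate 1, 3 without day 7 replicate 2, 25 without day 7 replicate 3 and 22 without day 20 replicate 3. Atp5j2, Atp5l and Uqcr10 passed in all 9 of these fits and Ndufa7 in 7. The share of all genes called in the fits that leave out 1 library is not given here or below. Other features of the myeloid barcodes moved with the day. Rod marker genes, whose list has 14 genes, held 11.4 to 65.3 UMIs per 10000 in the day 0 libraries, 3.42 to 11.3 at day 7 and 2.00 to 10.9 at day 20, and 36 of 255, 171 of 286 and 135 of 207 barcodes had 0 rod UMIs. Microglial markers were called lower at day 7 (9 of 9, median log2 change -1.83), where 17.1% of all genes were. The MHC class II genes were called higher (4 of 4, median 4.83), where 9.82% of all genes were. The part of these features in the result was not tested.

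At day 20 against day 0, sums of myeloid barcodes held more UMIs of 8 mitochondrial members, and these calls were lost without the few barcodes of at least 10% mitochondrial UMIs. edgeR called 0 of 65 nuclear members (4 at an unadjusted p under 0.05, 0 by DESeq2) and 8 of the 12 mitochondrial members tested, all higher, where 1.78% of all genes were called higher and 3.27% lower. Of all 1406 genes, 253 had an unadjusted p under 0.05, 83 of them higher. The summed mitochondrial share of myeloid barcodes was 1.71%, 2.00% and 2.00% at day 0, 2.45%, 1.78% and 3.16% at day 7 and 5.26%, 2.99% and 4.29% at day 20. The day 20 libraries lay above all of day 0 and overlapped day 7.

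mt-Co3, a core subunit of complex IV, stood at 27.5, 27.7 and 29.5 UMIs per 10000 at day 0, 38.7, 29.3 and 52.8 at day 7 and 79.2, 53.8 and 60.8 at day 20, with a log2 change at day 20 of 1.18 (SE 0.26, edgeR adjusted p = 0.0149). mt-Nd1, a core subunit of complex I, stood at 16.7, 20.1 and 27.1, then 24.9, 15.8 and 26.4, then 71.3, 33.3 and 63.1, with a change of 1.38 (SE 0.32, edgeR adjusted p = 0.0218). For both genes the day 20 libraries lay above day 0. The others called were mt-Nd5 (1.35), mt-Nd2 (1.21), mt-Atp6 (1.18), mt-Co2 (1.09), mt-Cytb (1.02) and mt-Nd4 (1.00), so that complexes I, III, IV and V were all represented. The remaining 4, mt-Atp8 (1.17), mt-Nd3 (1.13), mt-Nd4l (1.09) and mt-Co1 (0.80), missed the threshold. mt-Nd6 had too few UMIs to test.

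The sums at day 20 rested on a few barcodes. At day 20, 8 of 207 myeloid barcodes had at least 10% mitochondrial UMIs (3, 4 and 1 by library), and they held 64.5%, 47.2% and 52.7% of the mitochondrial UMIs of their library. At day 0 there were 2 of 255 such barcodes, with 4.27%, 18.2% and 0% of the mitochondrial UMIs, and at day 7 there were 5 of 286, with 46.9%, 11.4% and 0%. The median barcode did not follow the sums, at 1.74%, 1.79% and 1.96% at day 0, 1.03%, 1.59% and 2.60% at day 7 and 2.11%, 1.49% and 1.78% at day 20, with overlap between all days. Without barcodes of at least 10%, edgeR called 0 of 12 mitochondrial members (0 at an unadjusted p under 0.05) and their median log2 change fell from 1.15 to 0.06, with mt-Nd1 at -0.18 and mt-Co3 at 0.34. In that fit 1.09% of all genes were called higher at day 20. At day 7 it called 15 of 64 nuclear members higher, where 10.1% of all genes were. Leaving out 1 library at a time, the mitochondrial count at day 20 was 0 without day 0 replicate 1, day 0 replicate 2 or day 20 replicate 1, 2 without day 0 replicate 3, 4 without day 7 replicate 1 and 7 to 10 without any of the other 4.

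At day 7 against day 0, edgeR called 0 of the 12 mitochondrial members in myeloid barcodes (2 at an unadjusted p under 0.05, 0 by DESeq2). Their log2 changes ran from 0.02 for mt-Nd2 to 0.63 for mt-Nd4l. Of all 1406 genes, 555 had an unadjusted p under 0.05, 237 of them higher. At day 20 against day 7 edgeR called mt-Nd1 (1.22, adjusted p = 0.0408) and mt-Nd2 (1.20, adjusted p = 0.0424) higher, where 3.63% of all genes were. It called 0 of 65 nuclear members (9 at an unadjusted p under 0.05, all lower, 0 by DESeq2), whose median was -0.32, where 1.28% of all genes were lower. Of all 1406 genes, 243 had such a p, 148 of them higher. Both mitochondrial calls were lost without barcodes of at least 10% mitochondrial UMIs. Either call or both were also lost without any 1 of the libraries except day 7 replicate 3, with 1 left without day 20 replicate 2, day 0 replicate 3 or day 20 replicate 3 and 0 without the others.

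**Figure D5:**
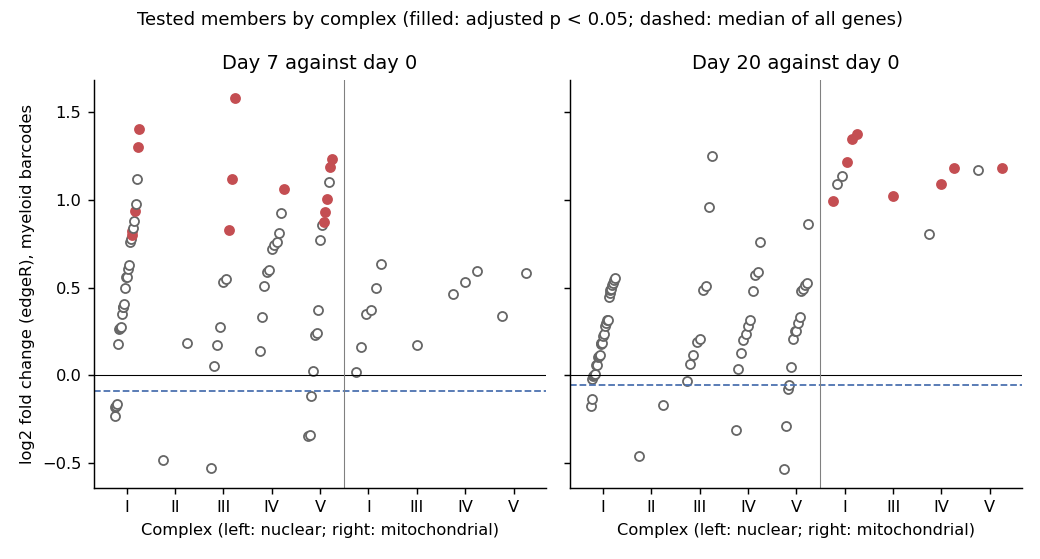
log2 fold changes from edgeR of the tested members in myeloid barcodes, at day 7 (left) and day 20 (right) against day 0, by complex, nuclear members left of the grey line and mitochondrial members right of it. Filled points passed an adjusted p of 0.05 and the dashed line is the median of all genes. Filled points are nuclear at day 7 (14) and mitochondrial at day 20 (8).

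Cells with and without MHC class II transcripts, a mark of antigen-presenting macrophages, did not differ detectably in either group. After thinning to 500 UMIs, barcodes with at least 2 UMIs of the MHC class II genes were set against those with 0, within the 4 libraries that had at least 10 of each (day 7 and day 20, replicates 1 and 2). The fit had the library as a block. Of 445 genes tested, edgeR called 0.899% higher and 0% lower. The 4 genes called higher were those whose UMIs define the classes, so no other gene was called. It called 0 of 27 nuclear members, though 3 had an unadjusted p under 0.05, all of them lower, and 0 of 11 mitochondrial members, of which 0 had such a p. The count from DESeq2 was 0 for both. The 3 were Ndufa4 (-1.39, SE 0.44), Ndufa6 (-0.68, SE 0.26) and Atp5g2 (-0.67, SE 0.27). Of the 445 genes, 31 had an unadjusted p under 0.05, 16 of them higher. The median log2 difference was -0.27 for the nuclear and -0.54 for the mitochondrial members, with all 11 mitochondrial values below 0, against -0.01 for all genes. The classes were made over all barcodes, so those without MHC class II UMIs include other barcodes (in day 20 replicate 1 they were 19 over all barcodes and 12 over myeloid barcodes, thinned anew). In myeloid barcodes alone, edgeR called 0 of 19 nuclear members (1 at an unadjusted p under 0.05) and 0 of 11 mitochondrial members (0 at such a p), with no DESeq2 fit made.

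Few of the genes that serve the same pathway outside the set had enough UMIs to be tested. In myeloid barcodes at day 7 against day 0, edgeR called 0 of 6 tested assembly factors (1 at an unadjusted p under 0.05, Cox17), 1 of 10 carriers and regulators, 0 of 2 enzymes of the tricarboxylic acid cycle (0 at such a p), 1 of 1 tested factor of mitochondrial gene expression and 2 of 7 mitochondrial ribosomal proteins, all higher, where 9.82% of all genes were. An unadjusted p under 0.05 was seen for 555 of all 1406 genes. DESeq2 called 0 genes of these lists. The carrier and regulator was Usmg5, a further small subunit of ATP synthase, with a log2 change of 1.11 (SE 0.35, edgeR adjusted p = 0.0298). Slirp, which binds and stabilises mitochondrial messenger RNA, had 1.36 (SE 0.39, edgeR adjusted p = 0.0207), and Mrpl23, of the mitochondrial ribosome, 1.31 (SE 0.40, edgeR adjusted p = 0.0245). The biogenesis regulators, 12 genes, had too few UMIs for any to be tested.

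The cytosolic ribosomal proteins, another group of short abundant transcripts, moved alongside. Of 78 tested, 23 were called higher and 0 lower at day 7, their median log2 change being 0.65 and the DESeq2 count 15. In the same fit 9.82% of all genes were called higher and 17.1% lower. At day 20, where these shares were 1.78% and 3.27%, edgeR called 0 (1 at an unadjusted p under 0.05, 0 by DESeq2), with a median of 0.29. Their share of non-mitochondrial UMIs in myeloid barcodes was 12.7% to 16.2% at day 0, 14.4% to 24.7% at day 7 and 16.4% to 19.9% at day 20. Glycolysis did not share this direction at day 7, where 0 of 11 tested were called higher and 1 lower, with a median of -0.02. At day 20, 7 of the 11 had a log2 change above 0, with a median of 0.27. The 1 called at day 20 was Hk2, the hexokinase of the first step, which fell by 1.87 on the log2 scale (SE 0.47, edgeR adjusted p = 0.03).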

How the data were processed

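The authors sorted CD45+ CD11b+ retinal cells, prepared 10x Genomics 3' v2 libraries and made gene-by-barcode matrices with Cell Ranger, with mm10 as the build in the submitters' processing notes. The deposited values are UMI counts per gene and barcode, with no normalization. The titles of the samples give hours where the treatment labels give days, and the days were used.

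Members and gene lists were chosen with earlier results of these data known. Named were all mitochondrial members, nuclear members with an adjusted p under 0.05, the 2 of each complex with the most UMIs, isoform genes and members at 0. The myeloid barcodes, the comparison of other against myeloid barcodes and the fit on barcodes under 2000 UMIs were added after seeing the data.

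Each barcode was kept in the library of its highest UMI total, with at least 200 genes. No doublet caller was run. Cells are not replicates, so UMIs were summed by library and tested in R 4.3.3 with edgeR 4.0.16 (TMM, filterByExpr with a minimum count of 10), and with DESeq2 1.42.0 as an alternative. The scripts were tested on simulated data. Of the gene IDs, 98.7% were in GENCODE M21, used for coordinates. Same-numbered libraries of different days had deviations with correlations of -0.07 to 0.37. For differently numbered libraries of different days these were -0.38 to 0.24. What the numbers stand for is not given, so the main fits did not take them as pairs. Counts with the number as a block are reported as an alternative. Read sharing between paralogs was not checked. Intervals and floors cover counting error only.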

Additional observations from a re-analysis of the deposited data

How the results depend on the processing

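Except where stated above, the share of all genes called in the fits of this section is not given. A changed count may therefore hold for genes at large as well as for the members. With all barcodes, the nuclear members called at day 7 against day 0 were 0, and 1 under 10% mitochondrial UMIs, 1 with a minimum count of 20, 14 in myeloid barcodes and 0 to 2 without 1 library (2 without day 7 replicate 3). With the replicate number as a block, the count was 1, and it was 0 for the nuclear members in the other day comparisons and for the mitochondrial members. In myeloid barcodes the block gave 8 nuclear members at day 7, 8 mitochondrial members at day 20 against day 0 and 3 at day 20 against day 7. The mitochondrial counts of 0 at day 20 against day 0 and day 7 became 8 and 2 in myeloid barcodes. For the classes by MHC class II, every deposited barcode entry gave 1 nuclear member, and leaving out 1 library gave 0 of each.

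In myeloid barcodes, the 14 nuclear members at day 7 became 5 with DESeq2, 1 under 2000 UMIs, 1 with no filter on low counts and 3 to 25 without 1 library. At day 20 the nuclear counts were 0 to 1 without 1 library in both comparisons (1 without day 0 replicate 2 against day 0 and 1 without day 7 replicate 3 against day 7). The 8 mitochondrial members at day 20 against day 0 became 0 under 10% mitochondrial UMIs, 0 under 2000 UMIs, 0 with no filter and 0 to 10 without 1 library, and the 2 at day 20 against day 7 became 0, 1, 0 and 0 to 2, in the same order. Under 10% mitochondrial UMIs, mt-Nd1 was at -0.18, mt-Nd2 at -0.17 and mt-Nd4 at -0.035 at day 20 against day 0, and mt-Nd1 at -0.045 against day 7.

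For other against myeloid barcodes, the nuclear count of 17 became 2 with no filter, 4 of 8 tested with a minimum count of 20, and 13 to 20 without 1 library, and the mitochondrial count of 12 became 0 with no filter and 10 to 12 without 1 library. With no filter, Uqcrh was at -0.27, Atp5c1 at -0.19, Ndufa13 at -0.15, Cox7a2 at -0.12 and Cox7c at -0.10. The causes were not tested.

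The difference in summed nuclear share at day 20 against day 0, in percentage points, was 0.339 in myeloid barcodes and 0.316 in those under 10% mitochondrial UMIs. Over all barcodes the difference ran from -0.10 to 0.216 without 1 library. Against day 7 it was -0.139 for every deposited entry and -0.0973 as the median over myeloid barcodes. Over all barcodes without 1 library, it ran from -0.29 to -0.167 against day 7, and from 0.149 to 0.465 at day 7 against day 0. For the mitochondrial share these ranges were -1.41 to 1.46 at day 7 against day 0, 0.497 to 2.21 at day 20 against day 0 and -0.249 to 2.5 at day 20 against day 7. Depth limits the sums: day 7 replicate 3 held 36840 UMIs, 20443 of them in myeloid barcodes.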

Other observations

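The make-up of the mitochondrial UMIs differed between libraries, more for some genes than for others. In myeloid barcodes mt-Atp8, whose reading frame overlaps that of mt-Atp6, gave 5.02%, 8.33% and 6.28% of the mitochondrial UMIs at day 0, 4.45%, 5.31% and 8.84% at day 7 and 8.16%, 1.86% and 8.93% at day 20, so that day 20 replicate 2 was the lowest of the 9 libraries. The share of mt-Nd3 ran from 0.469% to 1.37%, mt-Nd2 from 1.37% to 2.82%, mt-Nd1 from 8.37% to 14.7%, mt-Co1 from 11.0% to 17.2%, mt-Atp6 from 20.4% to 25.8% and mt-Co2 from 8.39% to 10.1%. These shares were noticed after the data had been seen and were not tested.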
